A study of Mus musculus with 12 samples.

Results

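The mitochondrial carriers of solute carrier family 25 (Slc25) were followed at the transcript level in glioma stem cells exposed to the nitroimidazole doranidazole. Members were all genes whose symbol in the array annotation begins with Slc25a or is Ucp1, Ucp2 or Ucp3, each taken at its probe set with the highest mean signal. This rule used no comparison between groups and gave 48 genes, each with 1 probe set, out of 19505 named genes and 22206 probe sets. Ucp2 and Slc25a52 were not analysed here.

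The cells, GSC-H, are a hygromycin-selected mouse line recovered from late-stage brain tumors that Ink4a/Arf-null neural stem/progenitor cells overexpressing H-RasV12 had formed in syngeneic mice. They were exposed for 24 h to 3 mM doranidazole, a 2-nitroimidazole made as a radiosensitizer, or to phosphate-buffered saline (PBS). The 4 groups were doranidazole in normoxia (Nx D, 21% O2), PBS in normoxia (Nx P, 21% O2), doranidazole in hypoxia (Hx D, 1% O2) and PBS in hypoxia (Hx P, 1% O2), each with 3 Clariom S Mouse arrays that the labels call biological replicates. All groups share the Ink4a/Arf deletion, the oncogene and a serum-free medium with epidermal and basic fibroblast growth factors, so that the arrays speak for this line alone, and p-values measure the spread between its samples. The paper states that the arrays come from 1 experiment, so that p-values do not cover the spread between experiments.

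Slc25 proteins sit for the most part in the inner mitochondrial membrane, where each exchanges or imports a small set of solutes: ADP for ATP, phosphate, citrate, malate, amino acids, cofactors or iron. They join reactions of the matrix to those of the cytosol, for instance in the malate-aspartate shuttle, which carries reducing equivalents of cytosolic NADH into mitochondria. The uncoupling protein Ucp1, known from brown fat, lets protons return to the matrix without ATP synthesis.

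Values are log2 signals of probe sets, so that a difference of 1 is a 2-fold change, and a signal is read only against the same probe set on other arrays. The median signal of all probe sets lay between 4.65 and 4.88 on the 12 arrays. The interquartile range of the signals on an array had a width of 5.16 to 5.75 in Hx D, against 5.91 to 6.00 in Hx P. Car9 was higher in Hx P than in Nx P by 8.23 on the log2 scale, which checks the oxygen labels of the PBS groups. In Hx D it averaged 7.05, against 14.97 in Hx P (adjusted p = 1.03e-06, limma), so that Car9 does not check the label of Hx D. The hypoxia-induced Bnip3 (-3.39), Pdk1 (-3.33) and Ankrd37 (-2.32) were also lower in Hx D than in Hx P, and Vegfa (-0.72) did not pass. Set against Nx D, the Hx D means were higher for Bnip3 (11.04 against 7.97), Pdk1 (11.36 against 8.97), Vegfa (14.21 against 11.97) and Ankrd37 (6.67 against 4.43). This goes with the hypoxia label of Hx D, though these differences from Nx D were not tested. Cdkn2a, which lies in the deleted locus, read 1.94 to 2.49 on all arrays. The summed signal of 7 neural stem cell markers, led by Vim, was 18.43 to 18.64 in Hx D, against 19.12 to 19.33 in Hx P, where Sox2 (-3.50), Olig2 (-2.08), Msi1 (-1.44) and Vim (-0.72) fell, and Cd44 (-0.52), Nes (0.27) and Prom1 (0.23) did not pass. For 4 astrocyte markers the summed signal was 5.76 to 6.00 in Hx D, against 7.07 to 7.35 in Hx P, where only Aqp4 passed (-2.36), with Gfap at 0.39, Aldh1l1 at -0.50 and S100b at 0.05. It was 5.84 to 6.06 in Hx D, against 5.55 to 5.67 in Hx P, for 5 microglia and leukocyte markers, of which only Itgam passed (0.88). For 4 endothelial markers it was 5.96 to 6.15 in Hx D, against 5.26 to 5.50 in Hx P, and only Pecam1 passed (1.28). These microglia, leukocyte and endothelial markers all averaged below 5 in Hx P, a range where 10.4% of all probe sets rose and 1.26% fell. The sum for 4 neuron markers was 10.25 to 11.19 in Hx D, against 10.21 to 11.29 in Hx P. For 3 measured oligodendrocyte markers it was 4.52 to 4.66, against 4.34 to 4.47, and none passed. The part of these shifts in the carrier values was not tested.

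The first question was how the carriers responded to doranidazole under 1% O2. Of 48 members, 21 passed at an adjusted p of 0.05, of which 9 rose and 12 fell in Hx D, which is 43.8% of the members against 27.7% of all probe sets. Rises made up 12.6% and falls 15.1% of all probe sets. Ucp1 had the largest rise, 2.55 on the log2 scale over a signal near the lower end of the scale, with Slc25a44, Slc25a37, Slc25a45 and Slc25a38 after it, and Slc25a23 fell most, by 11.4-fold, with Slc25a11, Slc25a12, Slc25a10 and Slc25a25 after it. The median log2 fold change was 0.06 over the members and 0.09 over all probe sets, while the median size of the change without its sign was 0.60 over the members and 0.39 over all. On 14 members the 3 Hx D arrays all lay above the 3 Hx P arrays, and on 12 they all lay below. Groups were separate in this way for 38.8% of all probe sets. At the thresholds of the study, a change above 2-fold with a p under 0.05, 13 members passed, against 18.8% of all probe sets. The unadjusted limma p was used for this, since the study does not state whether its own p was adjusted. Each signal is an average over a culture, so that a change within each cell and a change in the share of cells holding the transcript cannot be told apart.

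**Figure D1:**
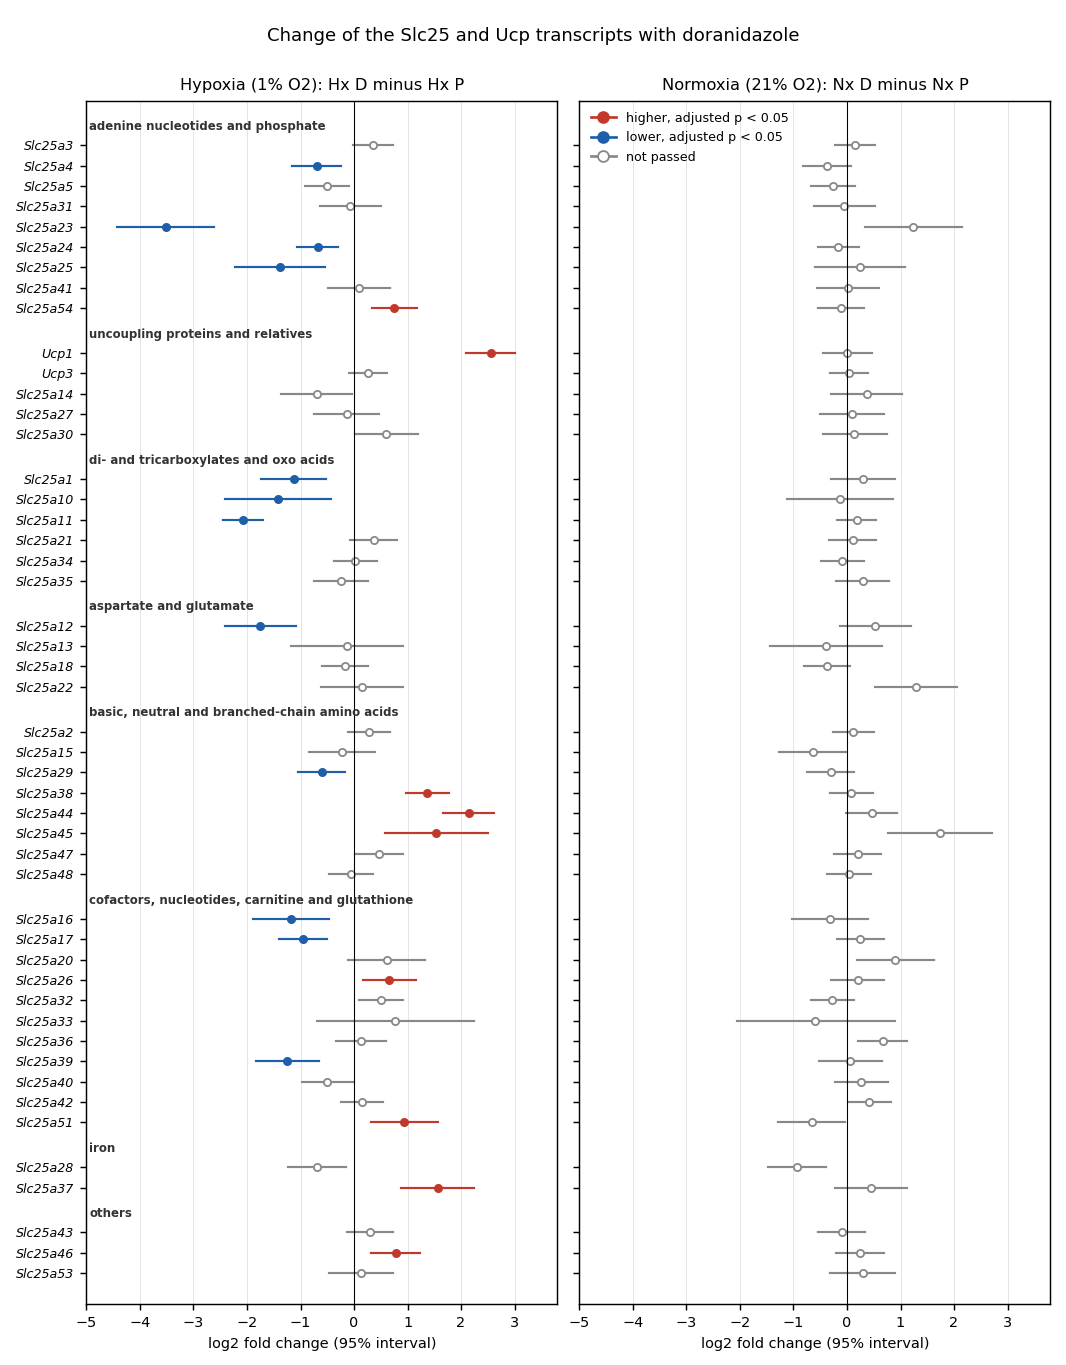
Log2 fold change (x axis) of each of the 48 members, grouped by role (y axis), for Hx D against Hx P on the left and Nx D against Nx P on the right. Points are limma estimates with 95% intervals, filled where the adjusted p was under 0.05: 9 members rose and 12 fell in hypoxia, and none passed in normoxia.

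Among the 9 measured carriers of adenine nucleotides and phosphate, 4 fell and 1 rose in Hx D (15.1% and 12.6% of all probe sets). Roles hold few members, and no role was tested as a set. Slc25a23, a calcium-regulated carrier that exchanges ATP-Mg for phosphate, read 3.87, 4.13 and 5.73 in Hx D, against 7.94, 8.00 and 8.33 in Hx P (log2 fold change -3.51, SE 0.42, adjusted p = 4.41e-05). All 3 Hx D arrays lay more than 2 log2 units below the lowest Hx P array, and the fall was 11.4-fold. Its relative Slc25a25 read 10.04, 9.21 and 9.37 in Hx D, against 10.88, 10.62 and 11.27 in Hx P (-1.39, SE 0.39, adjusted p = 0.0180). Slc25a24, another carrier of this calcium-regulated kind, read 11.63, 12.07 and 11.95 in Hx D, against 12.55, 12.42 and 12.71 in Hx P (-0.68, SE 0.18, adjusted p = 0.0118). Neither pair of groups overlapped. Slc25a4, the adenine nucleotide translocase of heart and muscle, read 14.36, 14.60 and 15.08 in Hx D, against 15.35, 15.11 and 15.66 in Hx P (-0.69, SE 0.21, adjusted p = 0.0257). The highest Hx D array and the lowest Hx P array of this gene differed by only a few hundredths of a log2 unit. Slc25a54 read 4.77, 4.12 and 4.44 in Hx D, against 3.51, 3.85 and 3.70 in Hx P (0.75, SE 0.20, adjusted p = 0.0121), at low signal on every array. Slc25a5, the translocase of dividing cells, read 16.77, 16.48 and 16.69 in Hx D, against 17.24, 16.76 and 17.47 in Hx P, with overlapping arrays (-0.51, 95% interval -0.92 to -0.10, adjusted p = 0.0651). Slc25a3, the phosphate carrier that supplies ATP synthase, read 15.55, 15.49 and 15.70 in Hx D, against 15.09, 15.15 and 15.46 in Hx P (0.35, 95% interval -0.02 to 0.72, adjusted p = 0.152). The testis translocase Slc25a31 and Slc25a41 had changes of -0.07 and 0.10 that did not pass. Slc25a4 did not pass without Hx D replicate 1 (adjusted p = 0.0967) or 2 (0.0672) or Hx P replicate 1 (0.0658) or 3 (0.103), and Slc25a25 did not without Hx D replicate 2 (0.0675) or Hx P replicate 3 (0.0638). Slc25a54 did not pass without Hx P replicate 1 (0.0576).

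Of 5 uncoupling proteins and relatives, against 27.7% of all probe sets, only Ucp1 passed. It read 5.13, 5.32 and 4.60 in Hx D, against 2.64, 2.57 and 2.19 in Hx P (log2 fold change 2.55, SE 0.21, adjusted p = 2.09e-06). The 9 arrays outside Hx D lay between 2.19 and 2.64, near the lower end of the array scale, so that the size of its fold change cannot be read. The muscle homologue Ucp3 read 2.89, 2.78 and 2.71 in Hx D, against 2.45, 2.42 and 2.74 in Hx P (0.26, 95% interval -0.10 to 0.62). Slc25a14 and Slc25a27, uncoupling protein relatives known from brain, had changes of -0.69 (adjusted p = 0.116) and -0.14, and Slc25a30, known from kidney, had 0.60 (adjusted p = 0.124).

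Carriers of di- and tricarboxylates and oxo acids included 3 that fell and none that rose among 6 (15.1% and 12.6% of all probe sets). Slc25a11, which exchanges oxoglutarate for malate in the malate-aspartate shuttle, read 12.11, 12.20 and 12.63 in Hx D, against 14.28, 14.40 and 14.48 in Hx P (log2 fold change -2.08, SE 0.17, adjusted p = 2.45e-06). Slc25a1, which exports citrate for lipid synthesis, read 14.08, 14.22 and 15.08 in Hx D, against 15.36, 16.05 and 15.35 in Hx P (-1.13, SE 0.28, adjusted p = 0.00854). For both genes every Hx D array lay below every Hx P array. Slc25a10, which exchanges malate or succinate for phosphate, read 8.19, 7.31 and 8.66 in Hx D, against 9.29, 8.50 and 10.65 in Hx P (-1.43, SE 0.46, adjusted p = 0.0345). Here the arrays overlapped, and the call was lost without Hx D replicate 1 (adjusted p = 0.0642) or 2 (0.138) or Hx P replicate 1 (0.0659) or 3 (-0.84, adjusted p = 0.126). Slc25a21, the oxodicarboxylate carrier, and the little-studied Slc25a34 and Slc25a35 were at low signal, with changes of 0.37, 0.02 and -0.24 that did not pass.

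The carriers of aspartate and glutamate showed 1 fall among 4 (15.1% of all probe sets fell). Slc25a12 (aralar), which exports aspartate in exchange for glutamate and also serves the malate-aspartate shuttle, read 9.40, 9.95 and 10.64 in Hx D, against 11.71, 11.73 and 11.82 in Hx P (log2 fold change -1.76, SE 0.31, adjusted p = 0.000916). Its liver counterpart Slc25a13 (citrin), of the same exchange and shuttle, read 6.44, 7.04 and 7.61 in Hx D, against 7.30, 6.02 and 8.19 in Hx P. The Hx D and Hx P arrays of Slc25a13 overlapped, and its change of -0.14 had a 95% interval of -1.18 to 0.91, wide enough to hold a fall or a rise of nearly 1. Slc25a22, a glutamate importer, read 7.87, 6.68 and 8.12 in Hx D, against 7.28, 7.47 and 7.47 in Hx P (0.15, 95% interval -0.62 to 0.91). The second glutamate importer, Slc25a18, had a change of -0.17 at low signal.

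Among 8 members grouped as carriers of basic, neutral and branched-chain amino acids and their relatives, 3 rose and 1 fell (12.6% and 15.1% of all probe sets). Slc25a44, which brings branched-chain amino acids into mitochondria of mouse brown fat, read 11.50, 12.22 and 12.33 in Hx D, against 10.13, 9.74 and 9.77 in Hx P (log2 fold change 2.14, SE 0.22, adjusted p = 1.36e-05). Slc25a38, which imports glycine for the first step of heme synthesis, read 10.37, 10.00 and 10.43 in Hx D, against 8.98, 9.06 and 8.67 in Hx P (1.37, SE 0.18, adjusted p = 0.000128). The Hx D arrays of both genes lay above those of Hx P by close to 1 log2 unit or more. Slc25a45, a relative of the carnitine and basic amino acid carriers, read 8.62, 7.87 and 10.15 in Hx D, against 7.53, 7.40 and 7.08 in Hx P (1.54, SE 0.45, adjusted p = 0.0211). Hx D replicate 3 stood above its group, and without it the change was 0.91 (adjusted p = 0.0435), while without Hx P replicate 3 the gene did not pass (adjusted p = 0.0643). Slc25a29, a carrier of basic amino acids, read 4.30, 4.49 and 4.35 in Hx D, against 5.37, 4.64 and 4.94 in Hx P (-0.60, SE 0.20, adjusted p = 0.0441). This call held without Hx P replicate 2, Nx P replicate 1 or Nx P replicate 2 and was lost in the other 9 fits that left out 1 array, with an adjusted p of up to 0.195 without Hx P replicate 1. The ornithine carriers Slc25a15 (-0.22) and Slc25a2 (0.28) did not pass. Nor did Slc25a47 (0.46) and Slc25a48 (-0.05), which were grouped here without their substrates being taken as amino acids.

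Carriers of cofactors, nucleotides, carnitine and glutathione went both ways, with 2 rises and 3 falls among 11 (12.6% and 15.1% of all probe sets). Slc25a39, which imports glutathione, read 12.09, 11.71 and 12.41 in Hx D, against 13.44, 13.43 and 13.10 in Hx P (log2 fold change -1.25, SE 0.27, adjusted p = 0.00389). Its paralog Slc25a40 read 8.28, 8.42 and 8.86 in Hx D, against 8.75, 9.06 and 9.24 in Hx P, with overlapping arrays (-0.50, 95% interval -0.98 to -0.01, adjusted p = 0.123). Slc25a17, a carrier of the peroxisomal membrane for coenzyme A and other nucleotide cofactors, read 10.60, 10.07 and 10.61 in Hx D, against 11.37, 11.45 and 11.34 in Hx P (-0.96, SE 0.21, adjusted p = 0.00366). Slc25a39 and Slc25a17 thus had no overlap between Hx D and Hx P. Slc25a16, linked to coenzyme A in mitochondria, read 6.53, 7.68 and 7.86 in Hx D, against 8.40, 8.45 and 8.76 in Hx P (-1.18, SE 0.33, adjusted p = 0.0167). Slc25a51, which imports NAD+, read 11.99, 11.82 and 12.44 in Hx D, against 11.33, 11.34 and 10.77 in Hx P (0.94, SE 0.29, adjusted p = 0.0295). Slc25a26, which imports the methyl donor S-adenosylmethionine, read 7.33, 6.82 and 7.81 in Hx D, against 6.45, 6.79 and 6.72 in Hx P (0.66, SE 0.23, adjusted p = 0.0484). The lowest Hx D array of Slc25a26 was level with the highest Hx P array to within a few hundredths. Slc25a20, which exchanges carnitine for acylcarnitine in fatty acid oxidation, read 7.97, 8.25 and 9.20 in Hx D, against 7.52, 7.70 and 8.37 in Hx P (0.61, 95% interval -0.11 to 1.32, adjusted p = 0.200). Of the others, Slc25a33, a pyrimidine nucleotide carrier, had the largest spread among the members (pooled SD 1.03, against a median of 0.28 over the members), and its change of 0.77 had a 95% interval of -0.70 to 2.25. The folate and FAD carrier Slc25a32 (0.50), the pyrimidine nucleotide carrier Slc25a36 (0.13) and the coenzyme A carrier Slc25a42 (0.15) did not pass. Slc25a26 held its call without Hx D replicate 2 and lost it in the other 11 fits that left out 1 array (adjusted p of up to 0.165, without Hx P replicate 1; change of 0.42 without Hx D replicate 3). Slc25a51 did not pass without Hx D replicate 1 (adjusted p = 0.0538) or 3 (0.0871) or Hx P replicate 1 (0.0503) or 3 (0.110), nor Slc25a16 without Hx D replicate 1 (-0.77, adjusted p = 0.0564) or Hx P replicate 3 (0.0561).

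The pair of mitochondrial iron importers differed in what passed. Slc25a37 (mitoferrin 1), best known from erythroid cells, read 10.65, 9.71 and 10.61 in Hx D, against 8.96, 9.02 and 8.32 in Hx P (log2 fold change 1.56, SE 0.31, adjusted p = 0.00235). Slc25a28 (mitoferrin 2), the form of other tissues, read 7.79, 7.57 and 7.56 in Hx D, against 8.38, 8.49 and 8.13 in Hx P, with no overlap (-0.69, 95% interval -1.23 to -0.15, adjusted p = 0.0561). Whether the 2 importers differ in response was not tested. Of the remaining 3 members, Slc25a46, an outer membrane protein of mitochondrial shape, read 13.16, 13.14 and 13.48 in Hx D, against 12.30, 12.29 and 12.85 in Hx P (0.78, SE 0.21, adjusted p = 0.0141). It did not pass without Hx P replicate 1 (adjusted p = 0.0645) or 2 (0.0584). The less studied Slc25a43 (0.29) and Slc25a53 (0.13) did not pass.

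**Figure D2:**
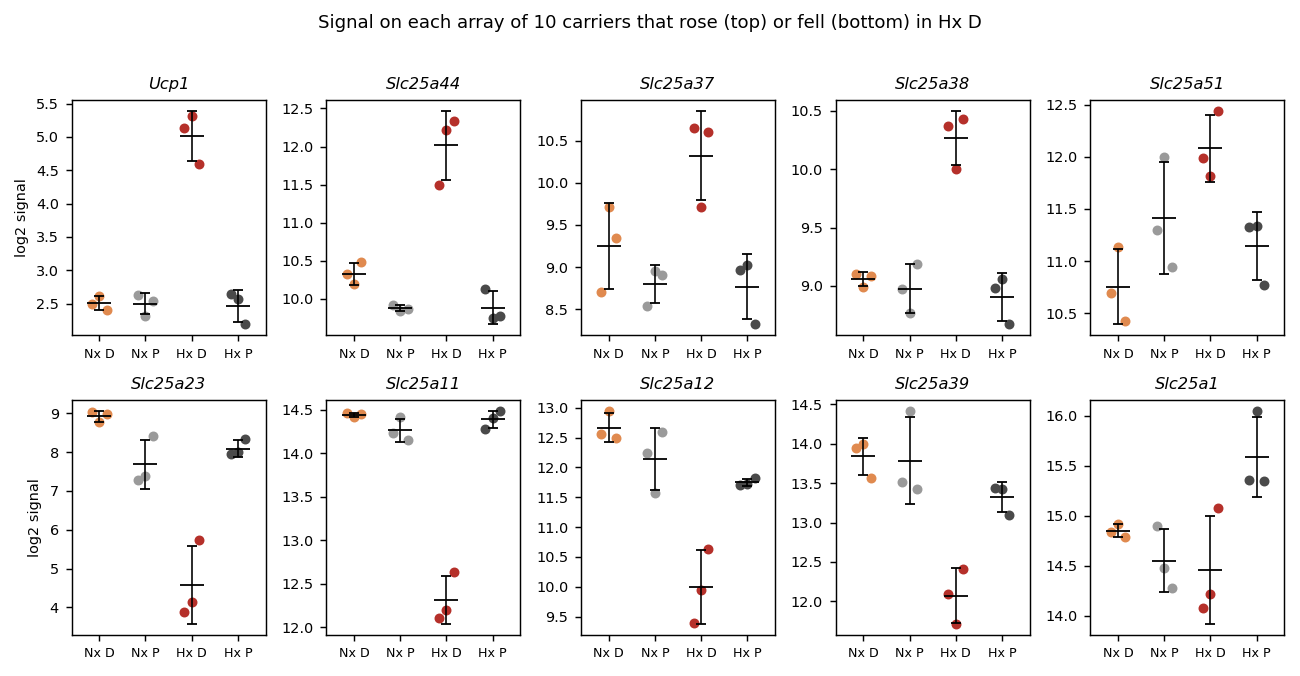
Log2 signal (y axis) on each of the 3 arrays of Nx D, Nx P, Hx D and Hx P for 5 members that rose (top) and 5 that fell (bottom) in Hx D against Hx P, with bars for the mean and SD. Ucp1 lay between 4.60 and 5.32 on the Hx D arrays and between 2.19 and 2.64 on the other 9, and Slc25a23 lay between 3.87 and 5.73 in Hx D and between 7.27 and 9.04 elsewhere.

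Bright probe sets fell more often than dim ones in Hx D, among the carriers and on the arrays at large. Of 13 members with a mean signal of 10 or more in Hx P, 8 fell and 2 rose. The falls were 61.5% of these members, against 34.8% of all probe sets of that signal. Between 5 and 10 in Hx P, 3 of 18 members fell (16.7%, against 27.1% of all) and 5 rose (27.8%, against 15.6% of all). Below 5 in Hx P, 1 of 17 members fell (5.88%, against 1.26% of all) and 2 rose (11.8%, against 10.4% of all). The split into rises and falls depended on how the arrays were scaled. It was 9 to 12 as deposited, 12 to 7 with quantile normalization, 7 to 14 with equal array medians and 13 to 9 with cyclic loess normalization. Over all probe sets the split under these scalings was 2798 to 3356, 3005 to 2865, 2051 to 3789 and 2798 to 3039. The median change of all probe sets was 0.09, 0.02, -0.03 and -0.01 in the same order. Each of the 21 members that passed as deposited kept its sign under the other 3 scalings. Slc25a3, Slc25a20, Slc25a30 and Slc25a32 also passed as higher with quantile and cyclic loess normalization (log2 fold changes of 0.51, 0.97, 0.93 and 0.86 with quantile normalization), and Slc25a5 (-0.63) and Slc25a28 (-0.82) passed as lower with equal medians. Slc25a4, Slc25a10 and Slc25a24 did not pass with quantile normalization (adjusted p = 0.0940, 0.100 and 0.0531) or cyclic loess normalization (0.0733, 0.0624 and 0.0597). Slc25a16 (0.0642), Slc25a25 (0.0592) and Slc25a54 (0.0549) also missed the threshold with quantile normalization, as did Slc25a26 (0.120) and Slc25a51 (0.0678) with equal medians. In a fit of the Hx D and Hx P arrays alone, Slc25a4, Slc25a10, Slc25a24, Slc25a26, Slc25a29, Slc25a45 and Slc25a54 did not pass (adjusted p of 0.0508 to 0.134). The call was kept in all 22 other fits by Slc25a11, Slc25a12, Slc25a17, Slc25a23 and Slc25a39, which fell, and by Slc25a37, Slc25a38 and Slc25a44, which rose, and in all 21 that tested it by Ucp1. Without Hx P replicate 3 the number of members called was 13, with 6 higher and 7 lower, beside 2282 higher and 3002 lower of all probe sets.

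**Figure D3:**
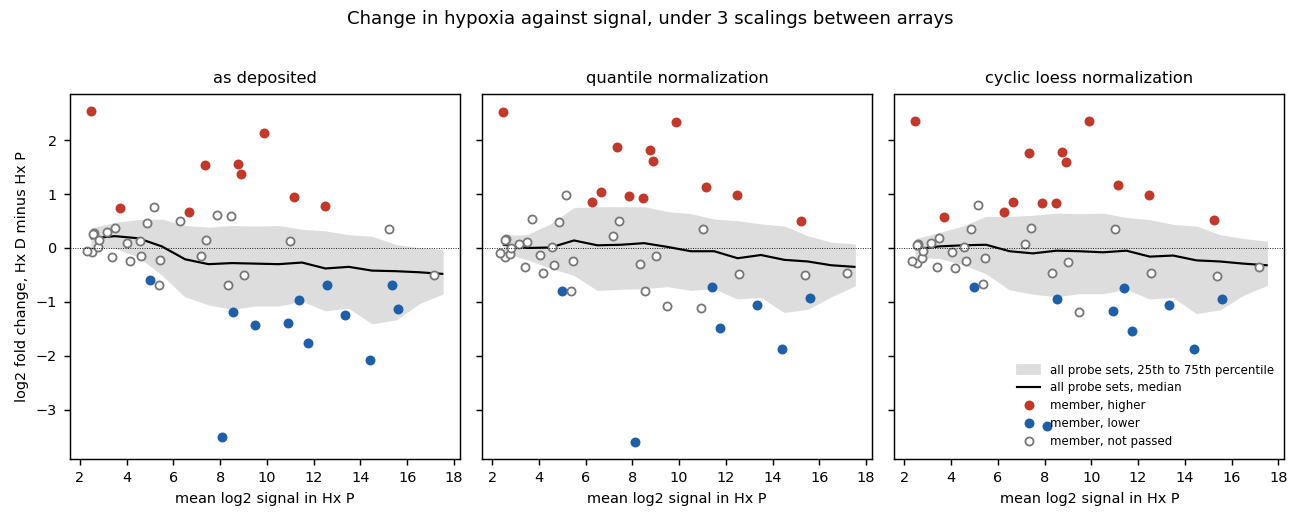
Log2 fold change of Hx D against Hx P (y axis) against the mean log2 signal in Hx P (x axis) for the 48 members, with the median and interquartile range of all probe sets, under 3 scalings. Members called higher and lower number 9 and 12 as deposited, 12 and 7 with quantile normalization and 13 and 9 with cyclic loess normalization, and Slc25a23 lies far below the other members in each.

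In normoxia, none of the 48 members passed with doranidazole (limma), against 1.59% of all probe sets, and 9 had an unadjusted p under 0.05, of which 6 were higher and 3 lower in Nx D. The share with such an unadjusted p was 12.8% of all probe sets. At the thresholds of the study 3 members passed, all higher in Nx D, against 3.84% of all probe sets. On 8 members the Nx D arrays all lay above those of Nx P and on 4 below, and groups were separate for 21.8% of all probe sets. Slc25a45 came nearest to the threshold. It read 8.54, 8.19 and 8.95 in Nx D, against 6.40, 7.24 and 6.86 in Nx P (log2 fold change 1.73, 95% interval 0.76 to 2.70, adjusted p = 0.0830). The glutamate importer Slc25a22 read 8.47, 8.40 and 8.46 in Nx D, against 7.02, 6.59 and 7.84 in Nx P (1.29, 95% interval 0.53 to 2.06, adjusted p = 0.0994). Slc25a23 read 9.04, 8.77 and 8.97 in Nx D, against 7.27, 7.38 and 8.41 in Nx P (1.24, 95% interval 0.34 to 2.14, adjusted p = 0.186). In these 3 genes every Nx D array lay above every Nx P array. The carnitine carrier Slc25a20 read 9.28, 9.35 and 8.96 in Nx D, against 8.10, 8.81 and 7.98 in Nx P (0.90, 95% interval 0.18 to 1.62, adjusted p = 0.239). Mitoferrin 2, Slc25a28, read 7.41, 8.34 and 7.53 in Nx D, against 8.42, 9.06 and 8.60 in Nx P (-0.93, 95% interval -1.47 to -0.39, adjusted p = 0.0936), so that all Nx D arrays lay below those of Nx P. The others with an unadjusted p under 0.05 were Slc25a36 (0.67) and Slc25a42 (0.42), higher, and Slc25a51 (-0.66) and Slc25a15 (-0.64), lower.

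The labels do not state that arrays of the same replicate number are paired. Pairing in normoxia was taken from correlations of same-numbered arrays in these data (0.202, 0.329 and 0.326). With the number as a block over these 6 arrays alone, 5 members passed, 4 higher and 1 lower in Nx D. With this block 7.27% of all probe sets passed. They were Slc25a45 (adjusted p = 0.00566), Slc25a22 (0.0144), Slc25a23 (0.0181) and Slc25a20 (0.0252), which were higher, and Slc25a28 (0.0153), which was lower. The differences within the 3 pairs were 2.15, 0.95 and 2.09 for Slc25a45, and 1.77, 1.39 and 0.56 for Slc25a23. For Slc25a28 they were -1.0, -0.72 and -1.07, of 1 sign in all pairs. With the block over all 12 arrays none passed in normoxia (limma, 1.98% of all probe sets). In the fit without a block, Slc25a45 and Slc25a23 passed without Hx D replicate 3 (adjusted p = 0.00903 and 0.0357), Slc25a45 and Slc25a22 without Hx D replicate 2 (0.0419 and 0.0361), Slc25a22 without Nx P replicate 3 (0.0477) and Slc25a28 without Nx D replicate 2 (0.0383).

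**Figure D4:**
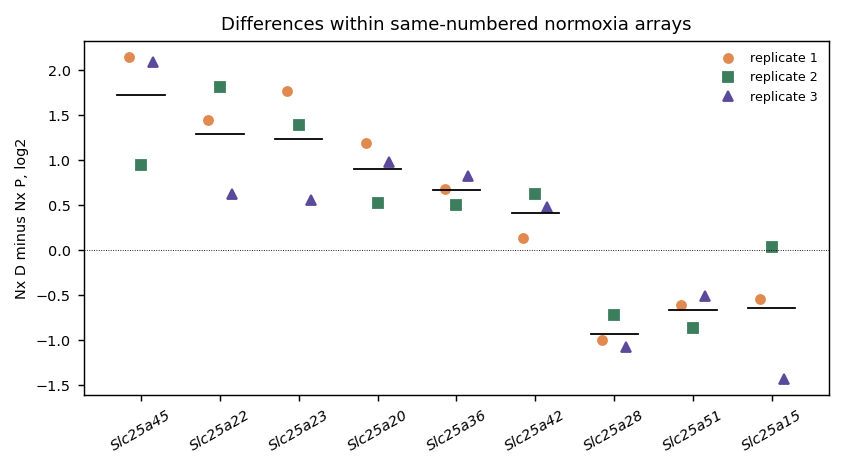
Nx D minus Nx P on the log2 scale (y axis) within each same-numbered pair of normoxia arrays, for the 9 members (x axis) with an unadjusted p under 0.05, with a bar at the mean. All pairs of Slc25a45, Slc25a22, Slc25a23, Slc25a20, Slc25a36 and Slc25a42 are above 0 and all pairs of Slc25a28 and Slc25a51 below it, while Slc25a15 has 1 pair at 0.04.

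Whether the response to doranidazole differed with oxygen was tested as the change in hypoxia minus the change in normoxia. It differed for 10 members, 20.8% of the 48, against 13.5% of all probe sets, with 4 differences upward (5.02% of all probe sets) and 6 downward in hypoxia (8.5% of all). At the thresholds of the study 14 members passed, against 17.9% of all probe sets. Slc25a23 had the largest (-4.75, SE 0.59, adjusted p = 0.000210), with a change of 1.24 in normoxia and -3.51 in hypoxia. Of the 3 measured carriers of the malate-aspartate shuttle, Slc25a11 and Slc25a12 were among them, while Slc25a13 had a difference of 0.25 (95% interval -1.23 to 1.73, adjusted p = 0.853). Slc25a11 read 14.46, 14.41 and 14.45 in Nx D, against 14.23, 14.41 and 14.15 in Nx P, a change of 0.18 beside that of -2.08 in hypoxia (difference -2.26, SE 0.24, adjusted p = 8.1e-05). Slc25a12 read 12.56, 12.95 and 12.49 in Nx D, against 12.25, 11.57 and 12.60 in Nx P, with a change of 0.53 (difference -2.29, SE 0.44, adjusted p = 0.00376). The normoxia arrays of both genes overlapped. Ucp1 read 2.5, 2.61 and 2.4 in Nx D, against 2.63, 2.32 and 2.54 in Nx P, all near the lower end of the scale, where a change may not be readable. Its difference passed (2.55, SE 0.29, adjusted p = 0.000124), with the same limit on its size. Slc25a44 read 10.32, 10.19 and 10.48 in Nx D, against 9.92, 9.84 and 9.86 in Nx P (difference 1.68, SE 0.31, adjusted p = 0.00311). In Slc25a44 the Nx D arrays also lay above those of Nx P, by 0.46 on average, which did not pass (adjusted p = 0.418). The glycine carrier Slc25a38 read 9.10, 8.99 and 9.08 in Nx D, against 8.97, 8.77 and 9.19 in Nx P (difference 1.29, SE 0.26, adjusted p = 0.00556). The NAD+ carrier Slc25a51 read 10.69, 11.14 and 10.43 in Nx D, against 11.30, 12.00 and 10.94 in Nx P (difference 1.60, SE 0.41, adjusted p = 0.0216). Its change was -0.66 in normoxia, which did not pass, and 0.94 in hypoxia. For the remaining 3 the differences were -1.43 for the citrate carrier Slc25a1 (adjusted p = 0.0297), -1.31 for the glutathione carrier Slc25a39 (0.0394) and -1.21 for the peroxisomal Slc25a17 (0.0150). By contrast Slc25a45 had a difference of -0.19 (95% interval -1.56 to 1.19), its change being 1.73 in normoxia and 1.54 in hypoxia, and Slc25a28 a difference of 0.24 (95% interval -0.53 to 1.00). Slc25a51 did not pass without Nx D replicate 1 (adjusted p = 0.0535) or 3 (0.0574). Slc25a1 held its call without Hx D replicate 3, Hx P replicate 1 or 3 or Nx P replicate 1 and lost it in the other 8 fits that left out 1 array (adjusted p of up to 0.0714). Slc25a39 held it without Hx D replicate 3, Hx P replicate 3, Nx D replicate 3 or Nx P replicate 2 and lost it in the other 8 (up to 0.0970), and with quantile (0.0578) or cyclic loess normalization (0.0702).

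Hypoxia alone moved no member past the threshold. Between Hx P and Nx P, 0 of 48 passed (limma), against 1.98% of all probe sets, and 10 had an unadjusted p under 0.05, 2 higher and 8 lower in Hx P, against 13.7% of all. At the thresholds of the study 2 passed, Slc25a1 (1.03) and Slc25a10 (-1.49), against 4.73% of all probe sets. On 3 members the Hx P arrays all lay above those of Nx P and on 10 below, and groups were separate for 19.1% of all probe sets. The median change was -0.19 over the members and -0.01 over all probe sets. Slc25a36, the pyrimidine nucleotide carrier, read 10.95, 11.33 and 10.71 in Hx P, against 9.98, 10.32 and 10.20 in Nx P (log2 fold change 0.83, SE 0.21, adjusted p = 0.0717). The citrate carrier Slc25a1 read 15.36, 16.05 and 15.35 in Hx P, against 14.90, 14.48 and 14.28 in Nx P (1.03, SE 0.28, adjusted p = 0.0828). These were higher on every Hx P array than on any Nx P array. The translocase Slc25a4 read 15.35, 15.11 and 15.66 in Hx P, against 16.22, 16.23 and 15.96 in Nx P (-0.76, SE 0.21, adjusted p = 0.0887). Its relative Slc25a5 read 17.24, 16.76 and 17.47 in Hx P, against 17.78, 17.76 and 17.78 in Nx P (-0.61, SE 0.19, adjusted p = 0.132). The phosphate carrier Slc25a3 read 15.09, 15.15 and 15.46 in Hx P, against 15.79, 15.94 and 15.58 in Nx P (-0.54, SE 0.17, adjusted p = 0.139). These 3 genes were lower on every Hx P array than on any Nx P array, without passing. Of the 9 measured carriers of adenine nucleotides and phosphate, 6 had negative changes and 3 positive ones, namely Slc25a23 (0.40), Slc25a41 (0.40) and Slc25a31 (0.14). The others with an unadjusted p under 0.05 were Slc25a10 (-1.49), Slc25a15 (-0.74), Slc25a18 (-0.56), Slc25a46 (-0.56) and Slc25a32 (-0.42). Without Hx P replicate 3, 5 members passed, Slc25a1 (adjusted p = 0.0493) and Slc25a36 (0.0266) higher and Slc25a4 (0.0337), Slc25a5 (0.0377) and Slc25a10 (0.00540) lower, and without Hx D replicate 3, 3 passed, Slc25a1 (0.0326), Slc25a36 (0.0448) and Slc25a4 (0.0458). Over all probe sets, 324 were called higher and 115 lower with all arrays. These were 654 and 778 without Hx P replicate 3, and 403 and 202 without Hx D replicate 3.

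With doranidazole in both groups, 21 members differed between Hx D and Nx D, 7 higher and 14 lower in Hx D (43.8%, against 30% of all probe sets, 13.5% higher and 16.5% lower). At the thresholds of the study 15 members passed, against 19.1% of all. The Hx D arrays all lay above those of Nx D on 8 members and below on 18, and groups were separate for 41.7% of all probe sets. This comparison uses the same Hx D arrays as that with Hx P. The falls passed here and not against Hx P for Slc25a14 (-1.44, SE 0.31, adjusted p = 0.00366), Slc25a5 (-0.86, SE 0.19, adjusted p = 0.00466), Slc25a40 (-0.86, SE 0.22, adjusted p = 0.0115) and Slc25a35 (-0.86, SE 0.23, adjusted p = 0.0139). The liver carrier Slc25a47 was higher here (0.72, SE 0.21, adjusted p = 0.0200). Slc25a10 read 8.19, 7.31 and 8.66 in Hx D, against 10.99, 10.75 and 10.76 in Nx D, and fell by 2.78 (SE 0.46, adjusted p = 0.000636), with no overlap. Slc25a4 was lower by 1.08 on the log2 scale in Hx D (log2 fold change -1.08, SE 0.21, adjusted p = 0.00198). Slc25a46, by contrast, differed by -0.03 between Hx D and Nx D (95% interval -0.48 to 0.43), and Slc25a1 by -0.39 (95% interval -1.0 to 0.21). Slc25a37 read 10.65, 9.71 and 10.61 in Hx D, against 8.70, 9.71 and 9.34 in Nx D (1.07, SE 0.31, adjusted p = 0.0206), with arrays that met at 9.71, and did not pass without Hx D replicate 1 (adjusted p = 0.0785) or 3 (0.0575) or Nx D replicate 1 (0.0945). Slc25a35 did not pass without Hx D replicate 2 (0.0506), nor Slc25a47 without Hx D replicate 2 (0.0736) or Nx D replicate 2 (0.0926), and Slc25a54 (0.60, adjusted p = 0.0370) did not pass without any of Hx D replicates 1 and 3 or Nx D replicates 2 and 3 (0.0562 to 0.134). Slc25a54 was also lost in 7 other fits (adjusted p of up to 0.23), among them quantile normalization, with a change of 0.34, and cyclic loess normalization, with 0.40. Slc25a40 was lost with quantile (-0.44, adjusted p = 0.134) and cyclic loess normalization (-0.52, adjusted p = 0.0806), Slc25a47 with only the groups compared (0.0545), and Slc25a24, which had passed here as lower, with cyclic loess normalization (-0.41, adjusted p = 0.098).

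Carriers work with the import machinery that places them in the membrane, with pores of the outer membrane and with enzymes that use their solutes, and 27 such partner genes were measured. In Hx D against Hx P, 8 of them fell and 2 rose, 37% of the list, against 27.7% of all probe sets. The list was chosen with earlier results of these data known, so that its shares are a description and no test. In Nx D against Nx P no partner passed (limma), with 2 at an unadjusted p under 0.05, against 12.8% of all probe sets. Of 4 measured enzymes of the malate-aspartate shuttle, the 2 cytosolic ones fell. Got1, the cytosolic aspartate aminotransferase, read 9.46, 9.36 and 9.45 in Hx D, against 11.36, 11.47 and 10.77 in Hx P (log2 fold change -1.78, SE 0.26, adjusted p = 0.000204). Mdh1, the cytosolic malate dehydrogenase, read 9.68, 10.22 and 10.19 in Hx D, against 11.35, 11.40 and 12.32 in Hx P (-1.66, SE 0.25, adjusted p = 0.000281). Their mitochondrial counterparts Got2 (-0.19) and Mdh2 (-0.58, adjusted p = 0.0600) did not pass in hypoxia, though the Hx D arrays of Mdh2 all lay below those of Hx P. Between Hx D and Nx D, 12 partners passed (44.4%, against 30% of all probe sets). All 4 shuttle enzymes fell there, with Got2 at -0.82 (adjusted p = 0.00517) and Mdh2 at -1.14 (0.00151). Whether cytosolic and mitochondrial enzymes differ in response was not tested. Among 12 genes of import, Tomm40, the pore of the outer membrane translocase, read 11.05, 10.83 and 11.27 in Hx D, against 12.50, 12.14 and 12.70 in Hx P (-1.39, SE 0.22, adjusted p = 0.000439). The receptor gene Tomm20 of the same translocase read 14.37, 14.22 and 14.14 in Hx D, against 13.18, 13.09 and 13.09 in Hx P (1.12, SE 0.15, adjusted p = 9.08e-05). These subunits thus moved in opposite directions, each with no overlap between Hx D and Hx P. Timm10b, a small translocase of the carrier pathway, read 5.48, 5.21 and 5.07 in Hx D, against 6.79, 6.79 and 6.20 in Hx P (-1.34, SE 0.20, adjusted p = 0.000309). Sfxn3, a sideroflexin of the inner membrane, read 9.26, 9.18 and 10.19 in Hx D, against 10.86, 11.13 and 9.89 in Hx P, with overlapping arrays (-1.08, SE 0.33, adjusted p = 0.0281). The difference between the responses passed for 7 partners (25.9%, against 13.5% of all probe sets), with Mdh1 at -1.58 (adjusted p = 0.00975) and Got1 at -1.46 (0.0177). Between Hx P and Nx P only Timm13, a small translocase of the intermembrane space, passed, at 7.71, 7.30 and 7.76 in Hx P, against 8.86, 8.57 and 8.24 in Nx P (-0.97, SE 0.22, adjusted p = 0.0432).

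Promoter sequence was read as the window from 250 bases before to 50 bases after each RefSeq start (GRCm38.p6), which 38 members had, with 48 windows in all. Windows were searched on both strands for ACGTG, the core of the hypoxia response element, TGACNNNGC, the core of the antioxidant response element, and TGATGNAA, an element of C/EBP and ATF factors. ACGTG was in 27.1% of the member windows, against 19.6% of all 32851 windows. It was in none of 4 windows of members that rose in Hx D against Hx P, in 1 of 15 of those that fell and in 12 of 29 of those that did not pass. TGACNNNGC was in 25% of the member windows, against 12.4% of all, and TGATGNAA in none, against 3.97% of all. By response, TGACNNNGC was in 1 of 4 windows of members that rose, 3 of 15 of those that fell and 8 of 29 of those that did not pass. Of the members, 7 had more than 1 window, some of them overlapping, and each window was counted. A match is a string of letters and does not show binding. Slc25a23 is shown as the member that fell most (chr17:57059814-57060113, minus strand), with a TGACNNNGC match on the reverse strand, in capitals, whose first base lies at -110 from the start. Slc25a38 is shown as the one with a match among the 4 risers that had a window (chr9:120110132-120110431, plus strand), again TGACNNNGC on the reverse strand, at -55. Slc25a1 is shown as the one with ACGTG among the members that fell and had a window (chr16:17928170-17928469, minus strand), with matches on both strands that overlap at -239 and -238 and a further match at 9, in capitals.
Slc25a23: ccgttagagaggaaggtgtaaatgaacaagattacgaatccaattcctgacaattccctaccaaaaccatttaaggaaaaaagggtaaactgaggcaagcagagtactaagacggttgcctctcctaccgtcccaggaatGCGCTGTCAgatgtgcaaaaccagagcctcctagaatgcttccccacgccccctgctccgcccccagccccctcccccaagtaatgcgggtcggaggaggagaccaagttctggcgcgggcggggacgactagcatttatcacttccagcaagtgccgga
Slc25a38: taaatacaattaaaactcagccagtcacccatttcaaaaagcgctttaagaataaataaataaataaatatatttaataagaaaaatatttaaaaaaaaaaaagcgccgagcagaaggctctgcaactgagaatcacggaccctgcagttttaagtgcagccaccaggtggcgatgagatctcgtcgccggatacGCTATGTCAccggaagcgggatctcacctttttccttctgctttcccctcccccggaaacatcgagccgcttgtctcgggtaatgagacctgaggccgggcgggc
Slc25a1: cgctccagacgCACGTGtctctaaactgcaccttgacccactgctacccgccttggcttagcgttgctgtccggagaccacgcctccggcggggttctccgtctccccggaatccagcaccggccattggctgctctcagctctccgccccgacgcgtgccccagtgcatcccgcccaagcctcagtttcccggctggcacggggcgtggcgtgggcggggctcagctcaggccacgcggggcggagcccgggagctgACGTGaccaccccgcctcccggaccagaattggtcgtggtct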

How the data were processed

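The authors extracted total RNA, hybridized it to Clariom S Mouse arrays and analyzed the scans with Transcriptome Analysis Console, and deposited log2 signals, 22206 per array, for 12 arrays. The method by which signals were summarized and scaled is not given in the sources used. Both deposited tables hold equal values, and 1 was used as it stands. Probe sets were named from the platform annotation (19572 with 1 symbol, 2634 with none used), and all 48 members matched RefSeq by gene ID.

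Groups were compared with limma 3.58.1 in R 4.3.3, two-sided, in a linear fit of 4 group means over the 12 arrays with no block and a shared prior for the spread. Adjustment was by Benjamini and Hochberg across all probe sets, with an adjusted p under 0.05 as the threshold. The fit was tested on simulated data with known changes. In the comparisons of 2 groups it called 38% to 44% of changes of 1 log2 unit and 87% to 93% of changes of 2. For the difference of response it called 9% and 68%, so that a change of this size can be missed. Only a small share of probe sets was changed in each simulated set. In the data 27.7% were called in Hx D against Hx P, 30% in Hx D against Nx D and 13.5% for the difference of response. The simulated rates need not hold for these 3. The members, roles and partner genes were chosen with earlier results of these data known. Every member could be named. Array values are given for members that passed with doranidazole and for a list of carriers with well-known substrates, and at most 6 partners are named per comparison by the size of their change, beside the counterparts of those named. No detection calls were used, and with 3 arrays per group precision is limited.

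Pairing was checked by correlating the deviations of same-numbered arrays from their group means. The correlations for replicates 1, 2 and 3 were 0.202, 0.329 and 0.326 between Nx D and Nx P, so that the block over these arrays is given, and -0.0202, -0.024 and -0.0466 between Hx D and Hx P. They were -0.0205, 0.264 and 0.356 between Hx P and Nx P, and 0.143, 0.031 and -0.00816 between Hx D and Nx D. With the block over the Hx P and Nx P arrays alone, 0 members passed, against 1.54% of all probe sets. Alternatives were 3 scalings, a filter on dim probe sets (means under percentile 30), array weights, a robust prior with a trend, the replicate block, only the groups compared, 1 probe set per gene, the fold and p thresholds of the study (fold change above 2 or below 0.5, p under 0.05), and each array left out. At the thresholds of the study the unadjusted limma p was used, since the study does not state whether its p was adjusted.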

Additional observations from a re-analysis of the deposited data

Results flagged for a closer look

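The response to doranidazole differed between hypoxia and normoxia for 10 members, by the test of the difference itself (limma, adjusted p under 0.05 over all probe sets). That is 20.8% of the members, against 13.5% of all probe sets. On the log2 scale, the change in hypoxia minus that in normoxia was -4.75 for Slc25a23, -2.29 for Slc25a12, -2.26 for Slc25a11, -1.43 for Slc25a1, -1.31 for Slc25a39 and -1.21 for Slc25a17. It was 2.55 for Ucp1, 1.68 for Slc25a44, 1.60 for Slc25a51 and 1.29 for Slc25a38. The size for Ucp1 cannot be read, since its signal outside Hx D lay near the lower end of the scale. The calls of Slc25a1 and Slc25a39 were each lost in 8 fits that left out 1 array, and that of Slc25a51 in 2.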

How the results depend on the processing

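None of the 52 member calls changed direction under any alternative run, and over these calls and alternatives 1044 values kept their side of the threshold and 129 lost it. The number of members called in Nx D against Nx P, 0 as reported, was 2 with only the groups compared, 6 with array weights, 5 with the replicate block over the normoxia arrays alone, 3 at the thresholds of the study and 0 to 2 with 1 array left out. Over all probe sets, 287 were called higher and 65 lower there as reported. These were 877 and 509 with array weights, 613 and 397 with only the groups compared, and 925 and 689 with that block. In Hx P against Nx P, 0 as reported, the number of members called was 1 with quantile or cyclic loess normalization, 8 with array weights, 1 with the replicate block over the 12 arrays, 2 at the thresholds of the study and 0 to 5 with 1 array left out. Over all probe sets, 324 were called higher and 115 lower there as reported. These were 1039 and 1234 with array weights, and 654 and 778 without Hx P replicate 3. In Hx D against Hx P, 21 as reported (27.7% of all probe sets), the number of members called was 13 at the thresholds of the study (18.8% of all) and 13 to 21 with 1 array left out. With the replicate block over these arrays alone, whose same-numbered deviations were not correlated, the number was 12 (18.2% of all). With 1 array left out the number of members called was 7 to 11 for the difference of response and 19 to 22 in Hx D against Nx D. The cause of these shifts was not tested. Another probe set per gene gave no value, since each member has 1. With dim probe sets left out, 40 members were tested. Values near the lowest signals, as for Ucp1 outside Hx D, limit the size of a fold change that can be read.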
